A study of Mus musculus with 12 samples.

Results

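The 51 genes described here build, attach and steer the chromosomes and the spindle in mitosis. They were taken as a list of symbols from the first column of the expression table, which holds 17007 genes, and all 51 were found. The list runs from proliferation markers and mitotic kinases through the spindle checkpoint, the centromere and the inner and outer kinetochore to the chromosomal passenger complex and the spindle motors. The study asked which genes in c-MYC-driven mouse liver cancer respond to inhibitors of the kinase mTOR. It singled out Cenpm from these same libraries together with an earlier microarray, human tumor data and human cell lines. The values of Cenpm below are therefore no independent evidence of its direction.

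RNA was sequenced from 12 samples in 4 groups of 3. Normal liver came from C57BL/6 mice that were wild type. All 9 tumors were c-MYC/MCL1/RictorKOTsc2KO hepatocellular carcinomas, raised by hydrodynamic tail vein injection, which delivers plasmid DNA into hepatocytes, together with Cre recombinase under the CMV promoter, in mice homozygous for floxed Rictor and Tsc2 (fl/fl). The overexpressed c-MYC and MCL1 and the loss of Rictor and Tsc2 are therefore shared by the vehicle and drug groups, and only injected cells carry them. Tumor-bearing mice received vehicle, MLN0128 at 1 mg/kg/day or everolimus at 1 mg/kg/day by gavage. By the labels and the methods, dosing ran 6 days a week for 3 weeks from day 6 after injection, with the mice killed at 3.7 weeks. The passage on the sequenced tumors gives 3 days of dosing instead, and which length applies to these libraries cannot be told from the sources used here. MLN0128 is an inhibitor of the mTOR kinase itself, and everolimus is a rapamycin analog that inhibits mTOR complex 1 only in part. Nothing in the labels says that the 3 samples of a group came from separate litters or days, so p-values measure the spread between these samples.

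Reads recovered from the expression values numbered 17141974 to 25155457 per library. Mouse Tsc2 was at 4.50 to 5.32 FPKM (fragments per kilobase of exon, scaled to library size) in normal liver, falling between 2.01 and 3.96 over the 9 tumors, and Rictor at 1.65 to 2.57 against 1.05 to 2.21. FPKM carries a scaling between libraries, with factors of 0.585 to 0.596 in normal liver and 1.10 to 1.37 in tumors. The differences of Tsc2 and Rictor between normal liver and tumors depend on it. The 8 hepatocyte markers summed to 85050 to 104500 FPKM in normal liver and 1943 to 8246 in tumors, so hepatocyte transcripts were present in every tumor library at a lower level. In whole tissue, fewer dividing cells and less RNA per dividing cell cannot be told apart.

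MLN0128 replicates 1 and 2 stood apart from the other 10 libraries in their sex chromosome transcripts. Xist, transcribed from the inactive X chromosome, was at 191 and 155 FPKM in these, and at most at 0.0699 in the others. The Y-linked genes Ddx3y, Eif2s3y, Uty and Kdm5d were listed at 0 in both and were present in all of the others, MLN0128 replicate 3 included. The counts of genes called with MLN0128 and the changes of Cenpm are therefore also given without replicate 3, and against vehicle from replicate 3 alone. Single values of other genes use all 3 replicates unless stated.

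In mitosis, the cyclin-dependent kinase Cdk1 with B-type cyclins drives the cell in, sister chromatids attach to spindle microtubules through kinetochores, and the spindle checkpoint holds back anaphase until every kinetochore is attached. The kinetochore is founded on chromatin that carries the histone variant CENP-A, on which an inner layer (the constitutive centromere-associated network, CCAN) and an outer microtubule-binding layer assemble. Adult hepatocytes rarely divide, and transcription of many mitotic genes is periodic, with a CCAAT box and a cell cycle genes homology region (CHR) in many of their promoters.

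For these genes the promoter is defined as 250 bases before to 50 bases after the start (RefSeq, GRCm38.p6), and 43 of the 51 matched an entry. Spc24, Foxm1, Incenp, Cdc25c, Aurkb, Ccna2, Tpx2 and Kif20a had none. Letters were searched on both strands for TTTGAA and TTCGAA, the letters of the CHR, for CCAAT, and for CACGTG, the E-box bound by MYC with its partner MAX. A TTTGAA was found in 25 of 43 promoters (58.1%) and in 14.9% of the 10217 tested genes with an entry, and a TTCGAA in 4 (9.30%) against 2.39%. CCAAT stood in 32 (74.4%) against 42.7%, and 24 held both a CHR and a CCAAT (55.8% against 6.98%). At least 2 CCAAT matches occurred in 19 (44.2%) against 16.5%. CACGTG occurred in a single member promoter, that of Ttk (2.33% against 11.8%). These are counts of letters in a fixed window and not of bound sites. The paper reports human CENPM as a direct target of c-MYC, from binding assays and a longer promoter fragment. The mouse windows searched here do not bear on that.

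The promoters of 5 genes on which the results turn are shown, 5′ to 3′ on the gene's strand with matched letters in capitals. Cenpm (chr15:82244287-82244586, minus strand) encodes a CCAN subunit and held a TTCGAA 83 bases before its start, with CCAAT at 172 and 131 bases before. Cenph (chr13:100775850-100776149, minus strand), a CCAN partner of Cenpm, held only a CCAAT, 31 bases after the start. Cdc20 (chr4:118437294-118437593, minus strand), the member with the largest rise in tumors on the log2(FPKM + 1) scale, held a TTTGAA 18 bases before the start between CCAAT matches at 53 and 8 bases before. Hjurp (chr1:88277530-88277829, minus strand), the member that rose with both drugs, held a TTTGAA 19 bases after and a CCAAT 182 bases before the start. Pttg1 (chr11:43425932-43426231, minus strand), the only member that fell in tumors, held none of the letters searched. The windows of Cenpm and Pttg1 lie wholly inside these genes as annotated in GENCODE M21, whose 5′ ends are at 82244748 and 43426251. Bases upstream of those ends were not searched.
Cenpm: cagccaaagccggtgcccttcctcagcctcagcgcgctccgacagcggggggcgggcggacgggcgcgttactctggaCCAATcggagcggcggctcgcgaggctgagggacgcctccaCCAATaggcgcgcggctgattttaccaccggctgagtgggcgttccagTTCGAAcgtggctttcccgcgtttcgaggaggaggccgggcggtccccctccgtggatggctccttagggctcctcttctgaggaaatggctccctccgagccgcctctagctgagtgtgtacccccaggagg
Cenph: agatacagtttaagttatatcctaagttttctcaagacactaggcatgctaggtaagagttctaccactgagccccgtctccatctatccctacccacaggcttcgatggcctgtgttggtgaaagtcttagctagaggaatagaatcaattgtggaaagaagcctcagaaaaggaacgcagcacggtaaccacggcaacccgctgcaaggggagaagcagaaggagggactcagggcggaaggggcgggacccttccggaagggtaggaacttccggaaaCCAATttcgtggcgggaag
Cdc20: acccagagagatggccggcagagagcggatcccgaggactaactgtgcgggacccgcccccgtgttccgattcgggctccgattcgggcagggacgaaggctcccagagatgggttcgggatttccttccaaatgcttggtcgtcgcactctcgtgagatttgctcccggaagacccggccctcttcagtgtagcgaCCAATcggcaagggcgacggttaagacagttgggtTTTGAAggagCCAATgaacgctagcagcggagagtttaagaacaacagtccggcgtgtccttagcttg
Hjurp: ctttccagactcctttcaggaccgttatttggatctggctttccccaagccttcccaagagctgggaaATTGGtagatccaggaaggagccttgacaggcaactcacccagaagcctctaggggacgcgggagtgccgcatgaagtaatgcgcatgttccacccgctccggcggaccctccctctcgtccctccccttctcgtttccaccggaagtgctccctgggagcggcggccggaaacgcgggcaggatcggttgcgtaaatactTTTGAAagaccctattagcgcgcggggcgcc
Pttg1: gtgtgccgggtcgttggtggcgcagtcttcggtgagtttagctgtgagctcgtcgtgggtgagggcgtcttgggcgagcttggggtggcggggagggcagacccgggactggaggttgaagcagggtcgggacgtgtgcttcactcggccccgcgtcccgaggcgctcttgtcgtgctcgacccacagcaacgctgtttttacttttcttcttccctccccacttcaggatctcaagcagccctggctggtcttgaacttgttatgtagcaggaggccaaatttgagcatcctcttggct

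The first comparison, vehicle-treated tumors against normal liver, shows how far the mitotic program was raised in the tumors. Of the 51 genes, 43 rose and 1 fell by more than 1.5-fold (limma's treat test, adjusted p under 0.05 over the 14397 tested genes), where 15.9% of all tested genes rose and 16.9% fell. All 51 had passed the filter on low values. On the log2(FPKM + 1) scale the median change was 2.49, against 0.06 over all tested genes. Every vehicle-treated tumor was above every normal liver for 48 members, as for 39.0% of tested genes, and below for 2, Pttg1 and Hjurp (35.1% of tested genes). The summed FPKM of the 51 genes was 73.7, 87.0 and 70.2 in the normal livers and 591, 593 and 520 in the vehicle-treated tumors.

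**Figure D1:**
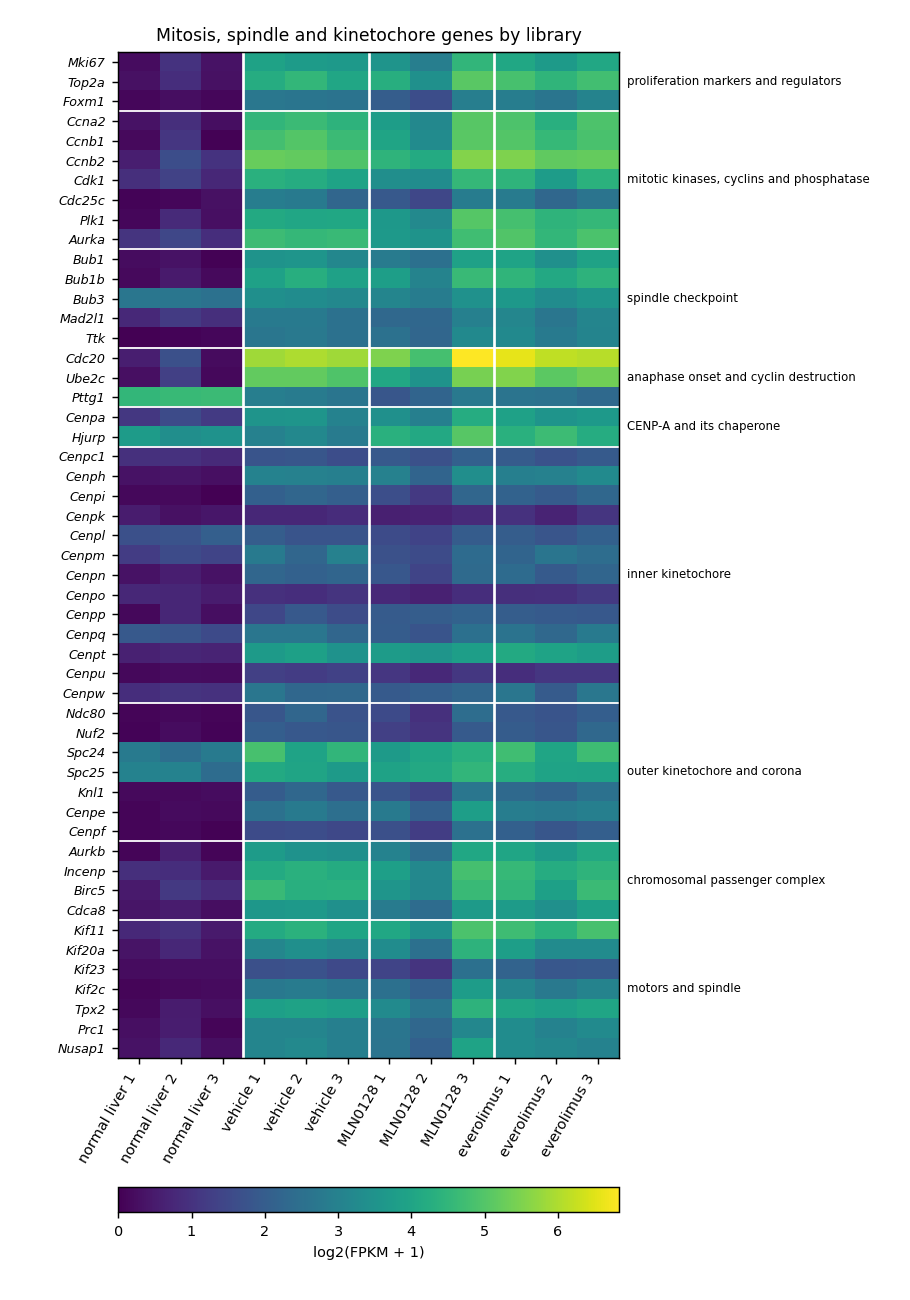
Expression of the 51 genes (rows, grouped by role) in the 12 libraries (columns), as log2(FPKM + 1) by color. The normal livers are dark for most genes, Pttg1 is bright there, and MLN0128 replicates 1 and 2 are darker than replicate 3.

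The proliferation markers and regulators came up together, 3 of 3. Mki67, which encodes the Ki-67 antigen of cycling cells, stood at 0.166, 1.01 and 0.267 FPKM in normal liver and at 14.3, 12.5 and 11.9 in vehicle-treated tumors. Top2a, the topoisomerase that untangles sister chromatids, went from 0.438 ± 0.361 to 18.4 ± 3.25 FPKM (mean ± SD, n = 3). Foxm1, a transcription factor of mitotic genes, went from 0.123 ± 0.0575 to 5.31 ± 0.212. Among normal livers, replicate 2 was highest for 38 of the 51 genes, and its Mki67 lay below that of every tumor.

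All 7 mitotic kinases, cyclins and phosphatases rose, with log2 changes from 2.48 (Cdc25c, the phosphatase that activates Cdk1) to 4.39 (Ccnb1). Ccnb1, which encodes cyclin B1, read 0.132, 1.12 and 0.0227 FPKM in the normal livers and 26.7, 31.2 and 24.1 in vehicle-treated tumors, with no overlap (log2 change 4.39, SE 0.383, adjusted p = 5.37e-06 by treat). Cdk1 itself was at 0.902, 1.56 and 0.699 against 19.4, 17.8 and 14.6 FPKM. Plk1, a kinase of spindle assembly, and Aurka, a kinase of the spindle poles, averaged 16.0 ± 0.529 and 23.7 ± 1.06 FPKM in the vehicle-treated tumors (SD, n = 3). Ccna2 (cyclin A2) and Ccnb2 (cyclin B2) reached 22.0 ± 1.98 and 34.0 ± 3.65.

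The spindle checkpoint divided into 4 genes that rose and Bub3, which did not pass. Ttk, the kinase at the head of the checkpoint, was listed at 0 in normal liver replicate 1 and at 0.0553 and 0.0779 FPKM in the others, against 5.44, 5.84 and 4.84 in vehicle-treated tumors. The 3 normal livers together held only 7 reads of Ttk, so its ratio of means, 121, rests on few reads. Bub1 and Bub1b, kinase-like checkpoint proteins, reached 9.69 ± 1.52 and 15.5 ± 2.57 FPKM from means of 0.154 and 0.223. Mad2l1, whose product MAD2 inhibits CDC20, went from 0.959 ± 0.289 to 5.62 ± 0.654. Bub3, a WD-repeat protein with a normal liver level of 5.25 ± 0.302 FPKM, stood at 8.86 ± 0.752 in the tumors, above every normal liver but not beyond 1.5-fold by the test (log2 change 0.66, adjusted p = 0.652). Without a bound on the fold it passed limma's moderated test (adjusted p = 0.00203). It also passed treat with plain library totals, which leave out the scaling between libraries.

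Genes of anaphase onset held the largest rise on the log2(FPKM + 1) scale and the only fall. Cdc20, the activator of the anaphase promoting complex, read 0.496, 2.18 and 0.154 FPKM in the normal livers and 56.8, 62.5 and 57.1 in vehicle-treated tumors (log2 change 5.08, SE 0.449, adjusted p = 5.10e-06 by treat). As a ratio of mean FPKM its rise was 62.3, below those of Ttk (121), Bub1b (69.7), Ccnb1 (64.3) and Bub1 (62.8), whose normal liver levels were lower. Ube2c, the ubiquitin-conjugating enzyme of that complex, was at 0.214, 1.46 and 0.111 against 35.3, 35.4 and 30.2 (log2 change 4.53, SE 0.416, adjusted p = 7.65e-06). Pttg1, which encodes securin, the inhibitor of separase, went the other way. Its level was 22.0, 23.1 and 24.4 FPKM in normal liver and 6.63, 6.12 and 5.26 in vehicle-treated tumors (log2 change -1.79, SE 0.193, adjusted p = 0.000188 by treat). All 9 tumors lay below all normal livers, with both drugs too (36.3% of tested genes did so with MLN0128 and 35.4% with everolimus). The fall depended on the scaling between libraries: with plain library totals the change was -0.92 and did not pass (adjusted p = 0.156).

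CENP-A and its chaperone parted. Cenpa, the centromeric histone, read 1.16, 1.97 and 1.23 FPKM in the normal livers and 10.5, 10.9 and 7.16 in vehicle-treated tumors (log2 change 2.10, SE 0.277, adjusted p = 0.00051 by treat). Hjurp, the chaperone that deposits CENP-A, was at 12.5, 9.35 and 10.1 against 7.04, 8.09 and 6.12 FPKM. The groups of Hjurp did not overlap, but its change of -0.53 (SE 0.219) did not pass either test (adjusted p = 1 by treat and 0.0503 by the moderated test). With plain library totals its sign turned, to 0.31.

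Of the 13 inner kinetochore genes 8 rose, and their changes spread from 0.02 to 3.02. Cenpt, which bridges the CCAN to the outer kinetochore, rose from 0.604 ± 0.069 to 12.1 ± 1.76 FPKM, the highest level of this group (log2 change 3.02, SE 0.132, adjusted p = 4.34e-08 by treat). The 4 genes of the CENP-H/I/K/M complex did not move alike. Cenph read 0.26, 0.305 and 0.215 FPKM in the normal livers and 7.19, 7.07 and 6.74 in vehicle-treated tumors (log2 change 2.67, SE 0.23, adjusted p = 1.05e-05). Cenpi was at 0.114, 0.128 and 0, against 3.30, 3.81 and 3.17 (2.03, SE 0.222, adjusted p = 0.000136), on 15 reads over the 3 normal livers. Cenpk was at 0.425, 0.243 and 0.33 against 0.687, 0.698 and 0.837, separate groups at a low level whose difference of 0.39 (SE 0.116) was within the bound (adjusted p = 1). Voom on the recovered reads adds no 1 FPKM and also leaves out the scaling between libraries. Under it the change of Cenpk was 2.10 and passed (adjusted p = 0.00192 by treat). With log2(FPKM + 0.1), or with plain library totals on log2(FPKM + 1), Cenpk did not pass.

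Cenpm was the most expressed of the 4 in normal liver, at 1.32, 1.96 and 1.66 FPKM, and stood at 6.09, 3.78 and 7.01 in vehicle-treated tumors (log2 change 1.30, SE 0.239, adjusted p = 0.0204 by treat). The groups did not overlap, but the call rested on few libraries: the adjusted p was 0.0714 when normal liver replicate 1 was left out, and 0.063 and 0.0836 when vehicle replicates 1 and 3 were. Per length, Cenpm exceeded Cenph by 5.08 to 7.72 times in normal liver and was 0.535 to 1.04 times as high in vehicle-treated tumors. The normal liver ratios rest on few reads, 15 of Cenph and 86 of Cenpm over the group. Vehicle replicate 3 had the highest Cenpm of its group, while it was the lowest of its group for 35 of the 51 genes.

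Further CCAN genes that rose were Cenpn, Cenpp, Cenpu and Cenpw, with changes from 1.09 (Cenpu) to 1.78 (Cenpn). Those that did not pass were Cenpc1, Cenpk, Cenpl, Cenpo and Cenpq. Cenpl read 2.20, 2.36 and 3.23 FPKM in the normal livers and 3.02, 2.42 and 2.45 in vehicle-treated tumors, overlapping groups (log2 change 0.02, SE 0.17, adjusted p = 1 by treat). Cenpc1, the CENP-C that holds the CCAN to CENP-A chromatin, changed by 0.83 (adjusted p = 0.105). Without a bound on the fold, Cenpc1, Cenpk, Cenpo and Cenpq passed the moderated test and Cenpl did not, at adjusted p = 0.000106, 0.011, 0.0384, 0.00534 and 0.923. With plain library totals Cenpc1 and Cenpq passed treat, and with voom on the recovered reads these, Cenpk and Cenpo did. A part of the exons of Cenpu (26.7%), Cenpo (19.0%) and Cenpp (12.3%) overlaps a gene on the opposite strand in the annotation, and whether counting used strand is not given in the sources used here.

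All 7 outer kinetochore and corona genes rose, by 1.13 to 2.46. The 4 subunits of the NDC80 complex, the microtubule coupler, started from unequal levels. Ndc80 and Nuf2 were at 0.081 ± 0.0281 and 0.0871 ± 0.0736 FPKM in normal liver, and Spc24 and Spc25 at 5.51 ± 0.806 and 6.19 ± 1.64. In vehicle-treated tumors Ndc80 and Nuf2 averaged 2.90 ± 0.771 and 2.77 ± 0.304, and Spc24 and Spc25 averaged 21.4 ± 6.66 and 14.5 ± 2.27, so the levels of the subunits differed in both tissues. Knl1, a scaffold for checkpoint proteins, Cenpe, a kinetochore motor, and Cenpf, a corona protein, changed by 1.88, 2.46 and 1.46 on the log2(FPKM + 1) scale. As ratios of mean FPKM their rises were 22.7, 43.7 and 27.1, from low normal liver levels.

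All 4 genes of the chromosomal passenger complex rose, by 3.20 to 3.60 on the log2(FPKM + 1) scale. They are Aurkb, its kinase, the scaffold Incenp, and Birc5 (survivin) and Cdca8 (borealin), which place it at the centromere. Their ratios of means were less alike, from 24.6 (Incenp) to 49.4 (Aurkb). Birc5 was at 0.409, 1.20 and 0.789 FPKM in normal liver against 23.8, 18.9 and 19.2. All 7 motors and spindle genes rose, by 1.40 to 3.56. Tpx2, which activates Aurora A, and Kif11, the motor that pushes the poles apart, changed most on the log2(FPKM + 1) scale (3.56 and 3.44), although by ratio of means Prc1 (28.7) and Kif2c exceeded Kif11 (24.7), with Tpx2 (55.9) above them all. On that log2 scale Kif23, a motor of cytokinesis, changed least (1.40, SE 0.284, adjusted p = 0.0242 by treat). The exons of Kif20a, another cytokinesis motor, overlap those of Cdc23 on the opposite strand over 29.3% of their length, and those of Ube2c overlap Tnnc2 over 22.8%.

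**Figure D2:**
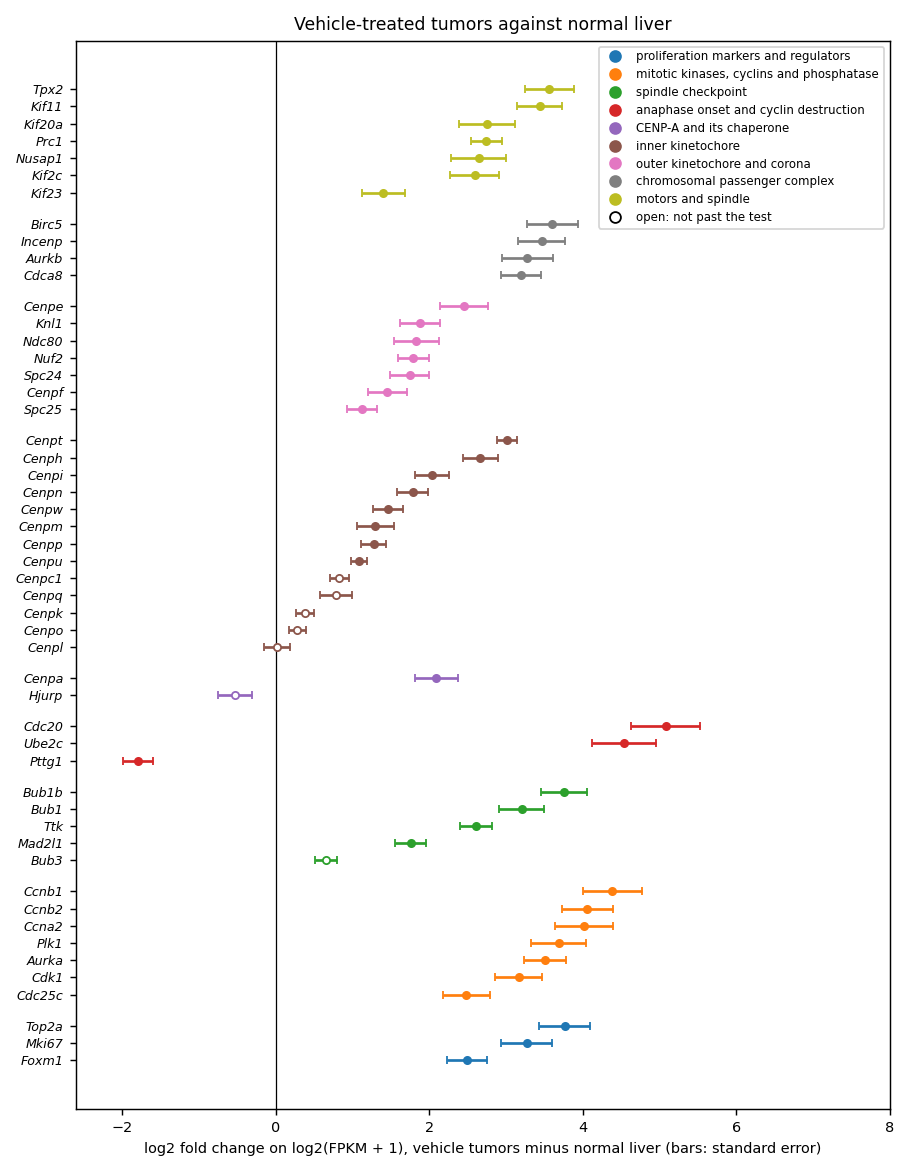
Log2 fold change on the log2(FPKM + 1) scale, vehicle-treated tumors minus normal liver (3 libraries each), for each of the 51 genes, with its standard error and colored by role. Filled points passed the treat test. Cdc20 lies farthest right at 5.08 and Pttg1 farthest left at -1.79, with Hjurp also negative at -0.53 (not passed). The inner kinetochore spreads from 0.02 to 3.02.

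The further comparisons ask what each inhibitor did to these genes in tumors. With MLN0128 against vehicle, 1 gene rose (Hjurp) and 1 fell (Cenpm) by limma's moderated test, where 14.9% of tested genes rose and 17.1% fell, so the share of the 51 genes called was below the background in both directions. The median change was -0.22, and 38 of 51 differences were negative, against -0.01 over all tested genes. At an unadjusted p under 0.05, 2 were higher (Hjurp and Cenpp) and 6 lower (Pttg1, Nuf2, Aurka, Cdca8, Cenpu and Cenpm), where 20.6% of tested genes were higher and 22.3% lower, so this share too was below the background. Groups lay apart for Hjurp and Cenpp above (22.1% of tested genes) and Cenpu and Cenpw below (23.4%).

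Hjurp was higher in every drug-treated tumor. It stood at 7.04, 8.09 and 6.12 FPKM with vehicle, at 19.4, 16.3 and 32.1 with MLN0128 and at 19.4, 24.7 and 17.8 with everolimus. The log2 change was 1.5 for MLN0128 (SE 0.219, adjusted p = 0.000678) and 1.41 for everolimus (SE 0.219, adjusted p = 0.00318). These comparisons share the vehicle libraries. Directly compared, the drugs differed by 0.08 (SE 0.219, adjusted p = 0.858). The 6 drug-treated tumors also lay above all normal livers, whose highest Hjurp was 12.5. Hjurp passed under all 22 settings of the moderated test in both comparisons, with adjusted p of at most 0.00846 and 0.0189. Against a bound of 1.5-fold (treat), it passed for MLN0128 (adjusted p = 0.0416) and not for everolimus (0.146).

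Cenpm stood at 2.26, 1.94 and 4.24 FPKM with MLN0128 against 6.09, 3.78 and 7.01 with vehicle, and the groups overlapped, since MLN0128 replicate 3 exceeded vehicle replicate 2. The log2 change was -0.81 (SE 0.239, adjusted p = 0.0232 by the moderated test), about the change of other members that did not pass, such as Ube2c at -0.76 (SE 0.416, adjusted p = 0.182) and Ccnb1 at -0.69 (SE 0.383, adjusted p = 0.189). The call held in 14 of 22 settings, with adjusted p from 0.00444 to 0.522. It was lost with plain library totals (0.061), with voom on the recovered reads (0.0544), in a fit of only the groups compared (0.072), without vehicle replicate 1 (0.0751) or 3 (0.0936) and without MLN0128 replicate 1 (0.0864) or 2 (0.0805). From MLN0128 replicate 3 alone the change was -0.31 (adjusted p = 0.522). Cenpm lacks an overlapping gene in the annotation.

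The complex partners of Cenpm did not pass with MLN0128 over all 3 replicates. Cenph was at 6.95, 3.60 and 9.42 FPKM (-0.14, SE 0.23, adjusted p = 0.673), Cenpi at 2.14, 1.20 and 3.81 (-0.46, SE 0.222, adjusted p = 0.137) and Cenpk at 0.512, 0.574 and 0.767 (-0.11, SE 0.116, adjusted p = 0.512). In all of them replicate 3 was the highest of the group. Without it Cenpi passed (-0.75, SE 0.164, adjusted p = 0.00635), and Cenph (-0.40, adjusted p = 0.142) and Cenpk (-0.17, adjusted p = 0.322) did not. Cenpp, another CCAN gene, was at 2.88, 3.02 and 3.47 FPKM with MLN0128 against 1.75, 2.76 and 2.03 with vehicle, apart in every library, but with adjusted p = 0.0939 (0.38, SE 0.164), and without replicate 3 the change was 0.33 (adjusted p = 0.201). Cenpe, next in order of positive change, was at 5.91, 3.26 and 13.1 against 4.86, 6.04 and 4.63 (0.28, SE 0.314, adjusted p = 0.53).

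**Figure D3:**
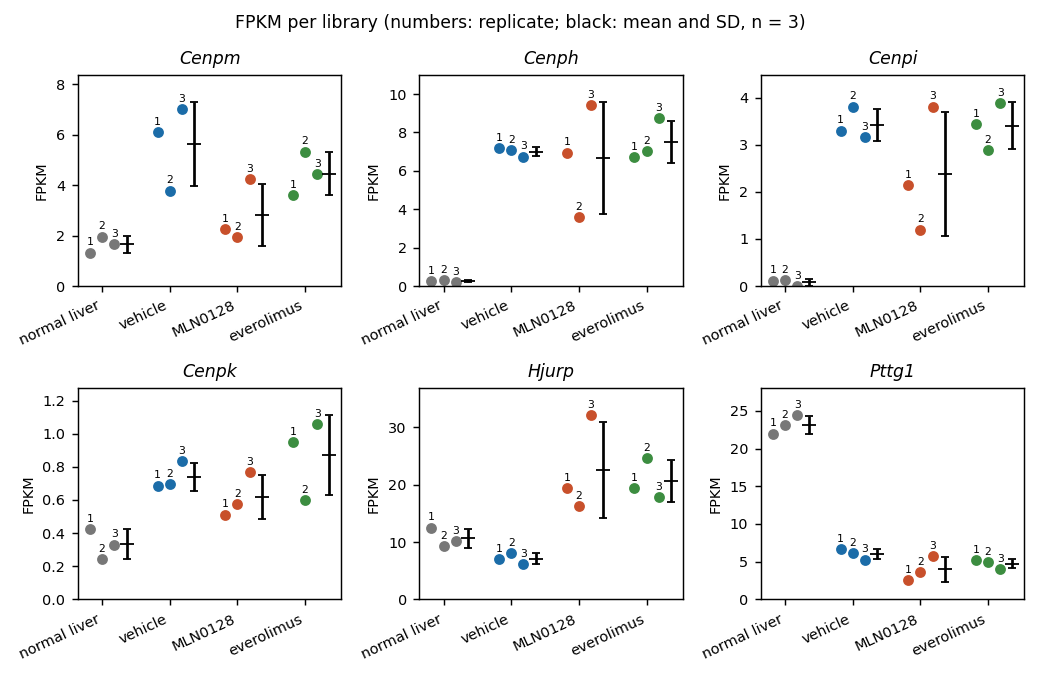
FPKM of Cenpm, Cenph, Cenpi, Cenpk, Hjurp and Pttg1 in each library (points, numbered by replicate) with mean and SD (black, n = 3) by group. Cenpm with MLN0128 overlaps vehicle through replicate 3, Hjurp is higher in all 6 drug-treated tumors than in any vehicle-treated tumor, and Pttg1 is lower in every tumor than in normal liver.

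MLN0128 replicate 3 had higher values than replicates 1 and 2 for 51 of 51 genes, an order found in 31.4% of tested genes. Its fold over the mean of replicates 1 and 2 ranged from 1.12 (Cenpt) to 3.55 (Kif23) with a median of 2.32, and was at least 2 in 32 genes. Cdc20 showed the split at high level, with 44.9 and 27.3 FPKM in replicates 1 and 2 and 113 in replicate 3, around 56.8, 62.5 and 57.1 with vehicle. Among the 9 tumors, replicate 3 was the highest for 27 genes and replicate 2 the lowest for 42. Replicates 1 and 2 were both below every vehicle-treated tumor for 38 of 51 genes (29.6% of tested genes), while replicate 3 was above all of them for 37 (33.5% of tested genes). Summed over the 51 genes, the group ran 415, 302 and 848 FPKM, so its extremes lie on both sides of vehicle.

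Without replicate 3, 27 of the 51 genes fell with MLN0128 against vehicle (moderated test, 17.1% of all tested genes) and Hjurp rose (15.9%). The 27 were led by Ube2c at -1.31 (SE 0.307, adjusted p = 0.00887), Ccnb1 at -1.17, Cenpm at -1.07 (adjusted p = 0.00444), Birc5 at -1.06 and Aurka at -1.04 (adjusted p = 0.0018). They took in Foxm1, all 7 mitotic kinases, cyclins and phosphatases, all 4 genes of the passenger complex, and of the CCAN Cenpi, Cenpm, Cenpn, Cenpq and Cenpu. The median over the 51 was -0.58, with 47 negative. From replicate 3 alone, no gene fell and 8 rose (Plk1, Hjurp, Cenpe, Cenpf, Kif20a, Kif23, Kif2c and Nusap1), where 7.50% of tested genes fell and 4.72% rose. The fit of replicate 3 alone assumes that it varies like the other groups.

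This split ran with the sex chromosome transcripts, replicates 1 and 2 on one side and replicate 3 on the other, and all vehicle and everolimus libraries carry Y-linked transcripts. Without replicate 3, the drug and the sex chromosome content therefore cannot be told apart. Hepatocyte markers (8 of 8 in the table) summed to 2910 and 4647 FPKM in replicates 1 and 2 and to 1943 in replicate 3, and macrophage markers (7 of 7) to 36.1, 29.2 and 46.6. Lymphocyte markers (6 of 7 in the table) summed to 0.811, 0.741 and 2.08. Mcl1, a gene also delivered by plasmid, was at 1120, 992 and 461 FPKM. With vehicle it was at 211, 143 and 176, and with everolimus at 235, 354 and 270. The part of these markers and of Mcl1 in the split was not tested.

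**Figure D4:**
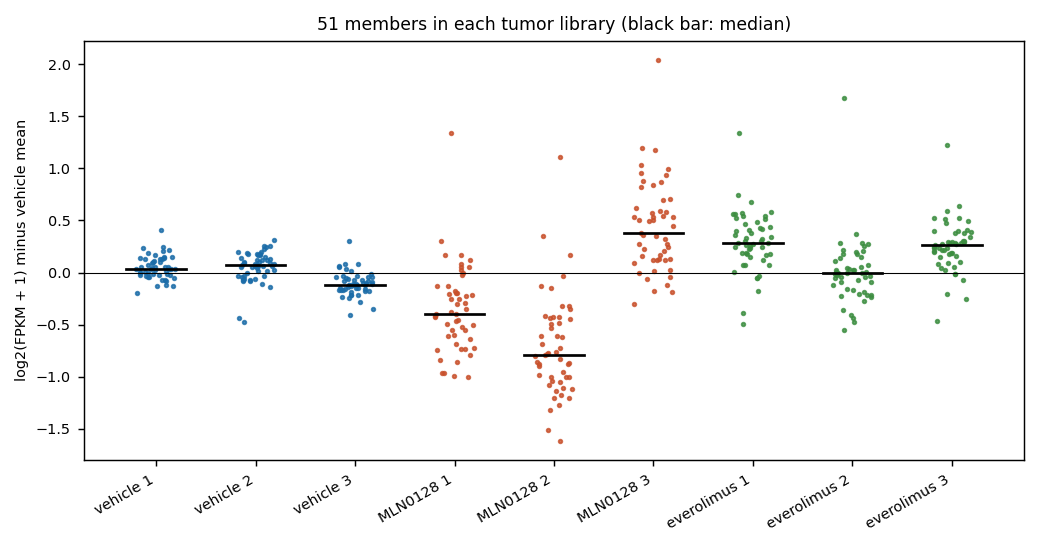
Difference of each of the 51 genes from its mean in vehicle-treated tumors, on log2(FPKM + 1), in each of the 9 tumor libraries (points), with the median (black bar). Medians are -0.39 and -0.79 in MLN0128 replicates 1 and 2 and 0.38 in replicate 3, and Hjurp is the highest point in each of the 6 drug-treated tumors.

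With everolimus, Hjurp was the only gene that rose against vehicle and none fell, where 3.78% of tested genes rose and 6.05% fell. Voom on recovered reads gave the same count, and at an unadjusted p under 0.05 only Hjurp was higher and Cenpu lower (13.3% and 13.5% of tested genes). Of the 51 differences 42 were positive, with a median of 0.17 against 0.03 over all tested genes. Next to Hjurp were Plk1 at 27.4, 20.9 and 22.6 FPKM against 16.6, 15.6 and 15.8 (0.53, SE 0.363, adjusted p = 0.386) and Cenpf at 3.28, 2.58 and 3.22 against 1.95, 2.08 and 1.80 (0.45, SE 0.249, adjusted p = 0.276). Both lay above every vehicle-treated tumor, as did Ttk, Cdc20, Hjurp and Kif23, 6 genes in all (17.6% of tested genes).

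The lowest members with everolimus were Pttg1 at 5.16, 4.97 and 4.05 FPKM (-0.29, SE 0.193, adjusted p = 0.368), Cenpu at 0.86, 1.11 and 1.11 (-0.27, SE 0.107, adjusted p = 0.134) and Cenpm at 3.60, 5.33 and 4.44 (-0.26, SE 0.239, adjusted p = 0.53). Pttg1 and Cenpu lay below every vehicle-treated tumor (14.8% of tested genes), and Cenpm overlapped. Cenph was at 6.71, 7.04 and 8.73 FPKM, Cenpi at 3.44, 2.89 and 3.89 and Cenpk at 0.951, 0.60 and 1.06, with changes of 0.08, -0.01 and 0.10 and adjusted p of 0.867, 0.986 and 0.648. Replicates 1 and 3 exceeded all vehicle-treated tumors for 36 and 37 genes (40.5% and 37.0% of tested genes) and replicate 2 for 8 (32.1%), so the everolimus tumors too differed among themselves. Summed over the 51 genes they were at 757, 581 and 693 FPKM.

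Between the drugs, no gene passed in either direction, where 3.99% of tested genes were higher with MLN0128 and 5.54% lower, and voom on recovered reads called none either. At an unadjusted p under 0.05, 12 were lower with MLN0128 (15.4% of tested genes) and 0 higher (11.6%). Of 51 differences 46 were negative, with a median of -0.43 against -0.03 over all tested genes. The lowest were Ube2c (-0.98, SE 0.416, adjusted p = 0.155), Aurka (-0.83, SE 0.274, adjusted p = 0.0785) and Aurkb (-0.78, SE 0.326, adjusted p = 0.151). The highest were Spc25 (0.12, SE 0.198, adjusted p = 0.746), Cenpp (0.10, SE 0.164, adjusted p = 0.756) and Hjurp. With MLN0128, Aurka ran from 10.4 to 25.9 FPKM and with everolimus from 22.2 to 30.3, and MLN0128 replicate 3 fell within the everolimus range.

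Cenpm differed between the drugs by -0.55 (SE 0.239, adjusted p = 0.164), Cenph by -0.22 (SE 0.23, adjusted p = 0.593), Cenpi by -0.45 (SE 0.222, adjusted p = 0.221) and Cenpk by -0.20 (SE 0.116, adjusted p = 0.289). The groups lay apart for Cenpo, below with MLN0128 (15.2% of tested genes), and for no gene above (12.5%). Without MLN0128 replicate 3, 31 genes were lower with MLN0128 than with everolimus (6.02% of tested genes), 24 of them among the 27 lower than vehicle, and Cenpm passed at -0.81 (adjusted p = 0.0395). Without everolimus replicate 2, Cenpw alone was lower.

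Most of the genes were above normal liver with either drug too. All MLN0128 tumors exceeded all normal livers for 46 of 51 genes (38.8% of tested genes) and all everolimus tumors for 49 (38.5%). MLN0128 replicates 1 and 2 alone exceeded them for 46 (41.8%) and replicate 3 for 49 (45.2%). Cenpm was among the 49 but not the 46, since MLN0128 replicate 2, at 1.94 FPKM, lay below normal liver replicate 2, at 1.96.

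Other genes of mitosis were counted from lists that do not hold the 51. Of 34 tested genes of the spindle and cytokinesis 25 rose in vehicle-treated tumors and 0 fell, and of 24 genes of mitotic entry and exit 18 rose and 0 fell, led on the log2(FPKM + 1) scale by Hmmr, a spindle assembly factor (4.2), and Mybl2, which encodes B-MYB (4.21). Of 21 further kinetochore and centromere genes 11 rose and 1 fell, Mis12 (-1.15), a subunit that links the inner to the outer kinetochore. Condensin and cohesin counted 10 risen of 22, and the anaphase promoting complex 4 of 17, with 0 fallen in both. Over the 118 tested genes of the 5 lists, 57.6% rose and 0.847% fell, against 15.9% and 16.9% of all tested genes. Medians were 1.92, 1.81, 1.20, 0.79 and 0.66 in that order, against 2.49 for the 51 genes.

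With MLN0128 against vehicle, 12 genes of these lists fell (10.2% of the 118) and 5 rose (4.24%), both below the 17.1% and 14.9% of all tested genes. Without replicate 3, 41 fell (34.7%, against 17.1%) and 4 rose (3.39%, against 15.9%), and from replicate 3 alone 3 fell (2.54%, against 7.50%) and 15 rose (12.7%, against 4.72%). The values that follow use all 3 replicates. Mybl2 fell by 1.40 (SE 0.306, adjusted p = 0.00553), Zwint, a partner of KNL1, by 0.66 (adjusted p = 0.00353), Mis12 by 0.54 (adjusted p = 0.0274) and Mad1l1, the checkpoint anchor of MAD2, by 0.52 (adjusted p = 0.00272). Those that rose were the cohesin genes Pds5b, Nipbl and Stag2, with Cdc23 and Numa1, by 0.36 to 0.45. Without replicate 3, Mybl2, Zwint, Mis12 and Mad1l1 still passed, and Pds5b and Numa1 no longer did (adjusted p = 0.0647 and 0.105). From replicate 3 alone, Mad1l1 and Numa1 passed among these 9. With everolimus 2 of the lists' genes fell, Zwint (-0.49, adjusted p = 0.0394) and Haus8 (-0.77, adjusted p = 0.0222), and 2 rose, Pds5b (0.64) and Cdc23 (0.44), each 1.69% of the 118 against 6.05% and 3.78% of all tested genes. Between the drugs 7 were lower with MLN0128 (5.93%, near the 5.54% of all tested genes), among them Mybl2 (-1.18, adjusted p = 0.0358), Cdc25a (-0.65) and Mis12 (-0.66), and 0 were higher. Without MLN0128 replicate 3 the lower genes numbered 44 (37.3%, against 6.02%), and from replicate 3 alone 0 were lower and Cdc25b was higher. The exon overlap of Cdc23 with Kif20a applies to its values as well.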

How the data were processed

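RNA from 12 mouse samples was sequenced. The authors deposited FPKM values (fragments per kilobase of exon, scaled to library size), linear and to 3 significant digits. Per the labels and the methods, reads were counted per gene on GRCm38, and FastQC 0.11.7 is named in the submitters' processing notes; the aligner and the gene lengths are not given in the sources used here. Treatment length is 3 weeks in the labels and methods and 3 days in the passage on these tumors.

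The members and all gene lists were chosen with earlier results of these data known. Groups were taken from the labels. A gene was kept where 3 or more libraries reached 0.5 FPKM (14397 of 17007; 4 entries share 2 symbols), and limma 3.58.1 in R 4.3.3 was fitted on log2(FPKM + 1) for all 12 libraries with group as the only term and a trended prior variance, so fold changes of low genes are understated. Tumor against normal liver was tested with treat against 1.5-fold, and the tumor groups with the moderated test, with Benjamini-Hochberg adjustment over all tested genes and a threshold of 0.05. The code was tested on simulated data.

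Reads were recovered from FPKM and exon lengths of GENCODE M21 for 16864 genes (98.2% to 98.8% of values under 20 reads fell within 0.1 of a whole number). They show a scaling between libraries beyond their totals, with factors of 0.585 to 0.596 in normal liver and 1.10 to 1.37 in tumors. A median of 18 reads per member and library lay behind the normal liver values and 711 to 1162 behind the tumor groups. Same-numbered libraries did not deviate together (correlations -0.289 to 0.148), so numbers were not used as pairs.

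All 51 members were accounted for by role. Full statistics were given for Cenpm, Cenph, Cenpi and Cenpk, for the 3 largest and 3 smallest changes per comparison, and for members past the test between tumor groups; other members named with values illustrate their role and were chosen after their values were seen. Alternatives were another pseudocount, filters, plain library totals, voom on recovered reads, a fit of the compared groups only, no trend, the replicate block, the other limma test, each library left out, and MLN0128 replicate 3 alone. Motifs and figures were made in Python 3.11.15 with pandas 2.3.3 and matplotlib 3.10.9.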

Additional observations from a re-analysis of the deposited data

How the results depend on the processing

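With 43 members higher in vehicle-treated tumors than in normal liver, the count ran from 40 to 48 over all alternatives. Plain library totals moved the median of all genes by 0.56 in that comparison and by 0.10 for MLN0128 against vehicle. Members lower in tumors numbered 1 and became 0 with plain library totals and with voom. Members higher with MLN0128 than with vehicle (1) became 2 with plain library totals (Hjurp and Cenpp), 8 from MLN0128 replicate 3 alone and 1 to 2 when leaving out each library. Members lower with MLN0128 than with vehicle (1) became 2 with no filter (Cenpm and Cenpu), and 0 with plain library totals, voom, only the 2 groups compared, treat, or MLN0128 replicate 3 alone, and ran from 0 to 27 when leaving out each library, 27 being without MLN0128 replicate 3. Members higher with everolimus (1) became 0 with treat and 1 to 2 when leaving out each library, 2 being without MLN0128 replicate 3 (Hjurp and Cenpf). Between the drugs, MLN0128 replicate 3 alone gave 1 higher (Cenpe), and leaving out each library gave 0 to 31 lower, 31 being without MLN0128 replicate 3. The cause of these changes was not tested.

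The replicate block changed no call: Cenpm with MLN0128 stayed at -0.81 (adjusted p = 0.0249) and the counts were 43 and 1 for tumors, 1 and 1 for MLN0128 and 1 and 0 for everolimus. Same-numbered libraries had a median correlation of -0.06 over 18 pairs, and different-numbered ones 0.03 over 36.

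Of 775 values of named genes under an alternative, 725 kept direction and call, 13 lost the call, 14 gained it and 23 turned direction, none of the last with a call on either side. From MLN0128 replicate 3 alone, the change against vehicle turned to 0.38 for Cenph, 0.12 for Cenpi, 0.023 for Cenpk, 0.33 for Ube2c and 0.27 for Ccnb1, and that against everolimus to 0.30 for Cenph, 0.13 for Cenpi, 0.11 for Ube2c and 0.12 for Aurkb. With plain library totals and voom, Hjurp in tumors against normal liver turned to 0.31 and 0.35. Leaving out each library gave ranges across 0 for Cenph (-0.40 to 0.19 for MLN0128 against vehicle, -0.023 to 0.15 for everolimus, -0.48 to 0.11 between drugs), Cenpi (-0.088 to 0.077, everolimus), Cenpl (-0.059 to 0.14, tumors), Cenpe (-0.18 to 0.68, MLN0128 against vehicle), and between the drugs Hjurp (-0.19 to 0.28) and Spc25 (-0.033 to 0.25). Few reads in normal liver limit the ratios there, and 3 libraries a group limit the tumor comparisons.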

Other observations

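Markers of other cell types were counted in the same tests, as a description of the tissue behind the mitotic genes. In vehicle-treated tumors against normal liver, 7 of 8 hepatocyte markers fell, 2 of 7 macrophage markers fell and 1 rose, 3 of 5 endothelial markers fell, 3 of 5 stellate cell markers fell and 1 rose, 3 of 4 tested cholangiocyte markers rose, and both erythroid markers in the table fell. The single tested lymphocyte marker and the 2 neutrophil markers did not pass. With MLN0128 against vehicle, over all 3 replicates, 3 of the 4 cholangiocyte markers (Krt19, Epcam and Sox9) fell, 1 hepatocyte marker rose (Cyp2e1) and 2 fell (Ttr and Apoa1), 2 macrophage markers fell (Cd68 and C1qa), the stellate cell marker Des rose, and no endothelial, erythroid, lymphocyte or neutrophil marker passed. Without replicate 3, Apoa1 did not pass and the erythroid marker Klf1 was higher, and the other calls stood. From replicate 3 alone, Ttr, Apoh, Cps1, Cd68, Krt19 and Sox9 fell and none rose. With everolimus the same 3 cholangiocyte markers fell, Cyp2e1 rose, Ttr and Cd68 fell, and no marker of the other types passed. Between the drugs, Marco and Alas2 were lower with MLN0128. The cholangiocyte markers summed to 57.7, 36.8 and 92.5 FPKM in the vehicle group, 10.3, 13.9 and 28.2 under MLN0128 and 20.1, 61.8 and 17.2 under everolimus. Spp1, which did not pass with either drug, made up most of each drug-treated sum, with 57.5 FPKM in everolimus replicate 2. Krt19 was at 29.6, 9.49 and 44.0 FPKM with vehicle and at most at 0.944 in the drug-treated tumors.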
